A study of Drosophila melanogaster with 2 samples.

Results

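The genes described here encode the machinery that starts transcription by RNA polymerase II in Drosophila melanogaster: the polymerase itself, its general transcription factors and Mediator. They were taken from the Ensembl release 115 (FlyBase 6.54) annotation of the dm6 genome build by symbol: every symbol starting with Polr2, TfII, Taf and a digit, or MED and a digit, together with Tbp and Ssl1. That gave 64 genes of 18164 annotated outside transposable elements, all of them protein-coding. They comprise 13 genes for RNA polymerase II subunits, 9 for TFII factors, 16 for TFIID, 1 for TFIIH (Ssl1) and 25 for Mediator. No symbol starting with TfIII, the polymerase III factors, was matched.

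RNA polymerase II transcribes protein-coding genes but cannot find a promoter alone. TFIID, built from the TATA-binding protein and its associated factors (TAFs), recognises core promoter DNA. TFIIA and TFIIB then join it, TFIIF brings the polymerase, and TFIIE and TFIIH complete the assembly and open the DNA. Mediator links this assembly to activators bound elsewhere, and TFIIS helps a stalled polymerase to resume. Most of these genes are used by nearly all cells.

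The measurement was chromatin immunoprecipitation sequencing (ChIP-seq) of CG10654, a protein fused at its C-terminus to green fluorescent protein (GFP) in a stable transgenic line. Whole embryos of both sexes, aged 0 to 24 h, gave 2 biological replicates of the same line, sonicated to 200 to 800 bp and precipitated with an antibody against GFP. There was no other group, so each value averages over all embryonic tissues and stages and no conditions were compared. The authors deposited candidate peaks for each replicate (23253 entries in replicate 1 and 30000 in replicate 2), for the pooled reads (27219) and a shorter list of 4117 peaks kept by the irreproducible discovery rate (IDR peaks). The last is the top of the pooled list, down to a signal of 99.3, where signal is the authors' enrichment per peak, with no absolute scale. The round length of the list of replicate 2 may be a limit on its entries, which would affect percentile ranks in it. The read depth behind these lists is unknown. A gene was given a promoter peak if a summit fell no more than 500 bp from one of its transcription start sites (TSS), and the strongest such peak was taken.

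A promoter IDR peak was present at 25 of the 64 genes (39.1%, 95% Wilson interval 28.1 to 51.3%). The same count was 16.3% over all annotated genes and 19.8% over protein-coding genes. Of the 13 polymerase subunit genes 6 had such a peak (46.2%), as had 4 of 9 TFII factor genes (44.4%), 4 of 16 TFIID genes (25%), 10 of 25 Mediator genes and Ssl1. The intervals of the complexes overlapped widely: 23.2 to 70.9% for the polymerase, 18.9 to 73.3% for the TFII factors, 10.2 to 49.5% for TFIID and 23.4 to 59.3% for Mediator. Intervals cover counting error over genes. The counts do not separate the complexes. The 25 peaks were distinct, with no peak counted for more than 1 of these genes.

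**Figure D1:**
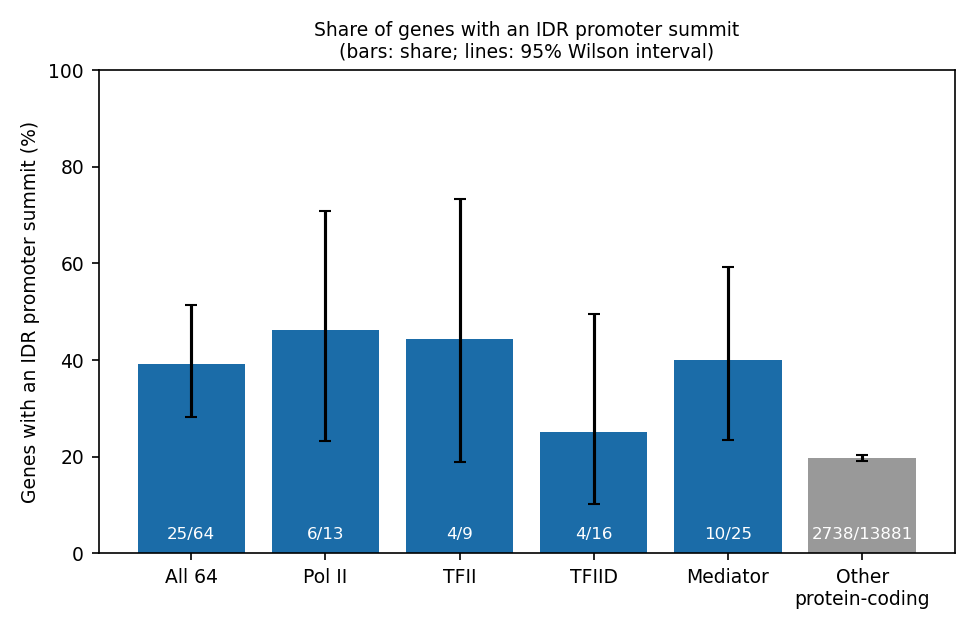
Share of genes with an IDR promoter summit, in percent, for all 64 genes and for the complexes with more than 1 gene, with the other 13881 protein-coding genes at the right. Bars give the share, lines the 95% Wilson interval, and the counts stand in the bars. TFIID is lowest of the complexes at 25% and the polymerase highest at 46.2%, with intervals that overlap.

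The reference sequence under the summits was rich in A and T. The stretches shown are the summit and 50 bp on either side for the strongest printable peak of each complex, with a further example from the polymerase and from Mediator, read 5′ to 3′ along the strand of the gene from the RefSeq Release 6 (dm6) genome. Capitals mark the longest unbroken run of A and T in each. The summit at Ssl1 lies in an annotated exon and is not shown. The stretches are those of Polr2B (chr3R:14125678-14125778, plus strand), Polr2J (chr2L:17410470-17410570, minus), TfIIA-L (chr3R:27253210-27253310, plus), Taf4 (chr3L:16113640-16113740, plus), MED30 (chr3L:654235-654335, minus) and MED27 (chr3R:5654952-5655052, plus). MED1 (chr3L:21634533-21634633, minus) had no candidate in any list and is added for contrast, centred 137 bp upstream of its TSS, the median position of the 25 summits.
Polr2B: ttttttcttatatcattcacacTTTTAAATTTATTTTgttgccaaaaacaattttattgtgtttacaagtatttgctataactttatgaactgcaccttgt
Polr2J: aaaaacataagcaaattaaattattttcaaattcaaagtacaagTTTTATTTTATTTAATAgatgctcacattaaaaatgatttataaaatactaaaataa
TfIIA-L: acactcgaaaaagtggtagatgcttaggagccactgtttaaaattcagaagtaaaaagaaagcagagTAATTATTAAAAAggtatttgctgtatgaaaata
Taf4: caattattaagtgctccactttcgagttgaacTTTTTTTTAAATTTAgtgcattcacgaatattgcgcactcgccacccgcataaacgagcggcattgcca
MED30: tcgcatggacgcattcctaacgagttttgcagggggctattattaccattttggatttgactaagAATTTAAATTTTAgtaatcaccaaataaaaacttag
MED27: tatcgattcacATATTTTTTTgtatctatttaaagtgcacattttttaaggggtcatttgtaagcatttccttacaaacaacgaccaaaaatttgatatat
MED1: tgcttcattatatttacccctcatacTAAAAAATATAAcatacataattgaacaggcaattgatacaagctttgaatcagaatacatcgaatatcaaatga

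The printed stretches ranged from 14.9% G or C at Polr2J to 41.6% at Taf4, and MED1, without a peak, had 27.7%. Over all 25 peaks the summit window held a median of 30.7% G or C (31.5% ± 9.86, SD, n = 25 peaks). Windows 300 bp to either side of the same summits held 48.5%. At the 2139 other promoter IDR peaks the medians were 32.7% at the summit and 44.6% in the flanks. Promoters without a peak were also rich in A and T: in a window centred 137 bp upstream of a TSS, the median was 26.7% G or C for the 25 genes with an IDR peak and 32.7% for the 39 without, against 34.7% over all protein-coding genes.

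**Figure D2:**
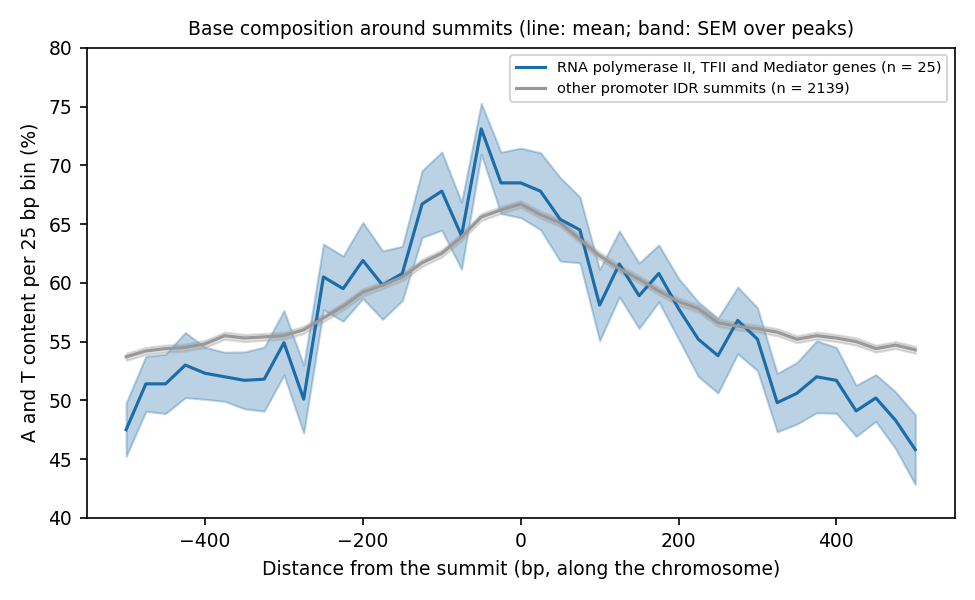
A and T content in 25 bp bins, in percent, by distance from the summit along the chromosome, for the 25 peaks at the genes described and for the 2139 other promoter IDR peaks. Lines are means and bands the SEM over peaks. Both profiles rise towards the summit, with 68.5% and 66.7% in the central bin. The first, which rests on fewer peaks, varies more from bin to bin and is highest at -50 bp (73.1%).

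Fixed consensus words were searched on both strands of the 101 bp summit windows. The DRE core TATCGATA occurred in 0 of 25 windows, against 3.41% of the 2139 other promoter IDR windows and 1.20% of 13945 protein-coding promoter windows of that width. GGTCACAC, the core of the M1BP motif, occurred in 0 windows, against 1.82% and 0.746%, and the E-box CAGCTG in 0, against 4.07% and 4.12%. CGATA, which is contained in TATCGATA, occurred in 3 windows (12%, against 22.2% and 14.9%) and TATAAA in 5 (20.0%, against 21.6% and 20.4%). GAGAG and GCCAT occurred in 2 each (8%), against 7.71% and 13.7% of the other IDR windows and 12.4% and 14.9% of promoters. For the rarer words, 25 windows are too few to tell 0 matches from the shares elsewhere. The 8-letter word whose share exceeded that of windows 300 bp away by most at the 4092 IDR peaks elsewhere was ATTTAAAA (6.77% against 2.27%). It occurred in 2 of the 25 windows (8%), against 7.11% of the other promoter IDR windows and 6.63% of protein-coding promoter windows. At this width its share was thus close to that of promoters in general.

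**Figure D3:**
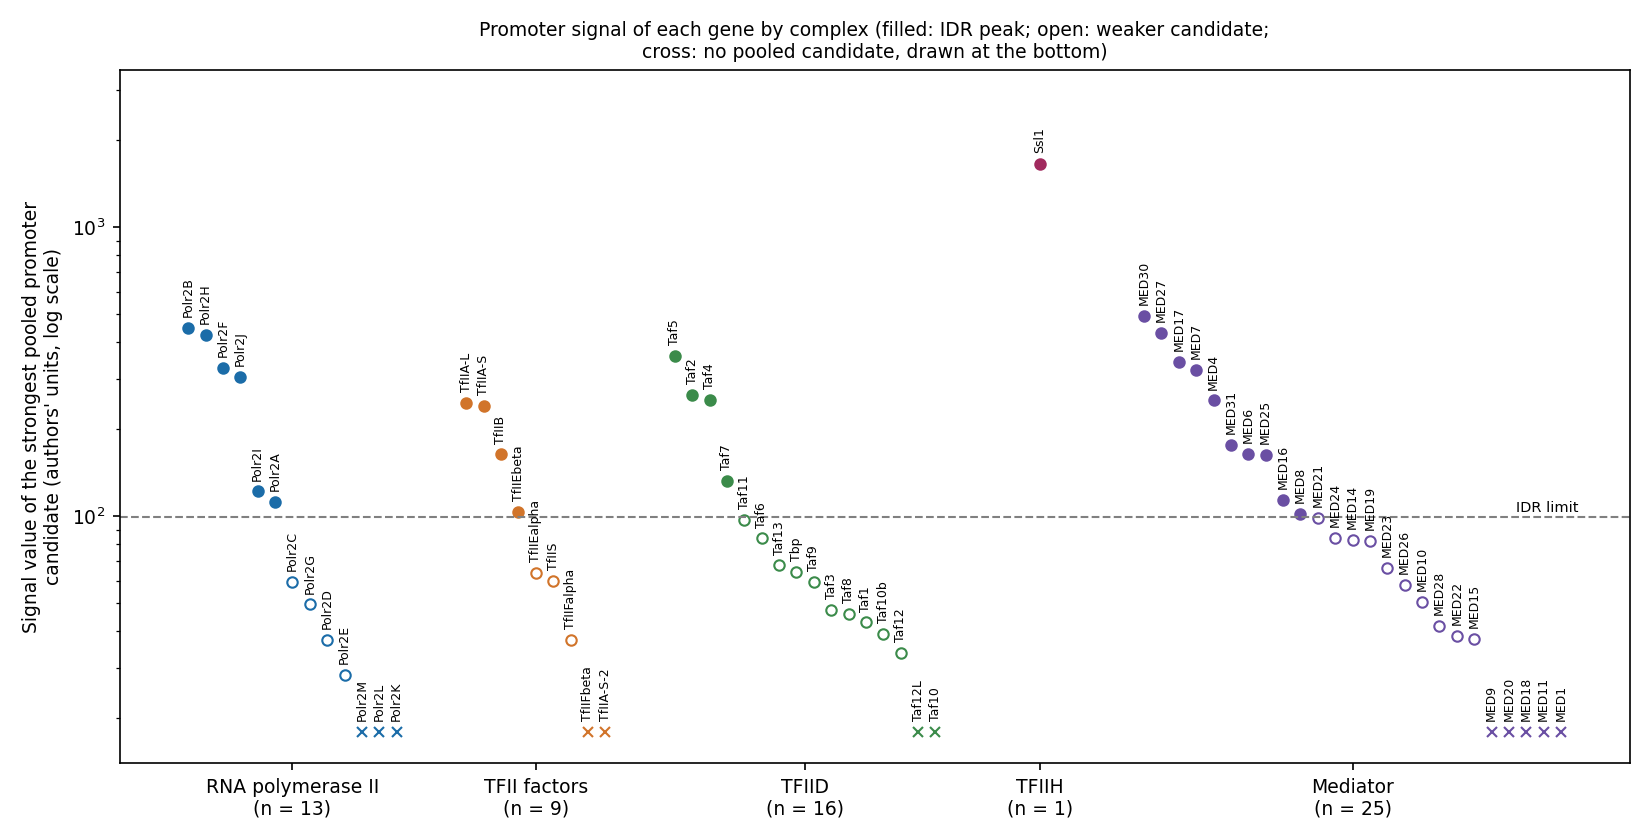
Signal of the strongest pooled promoter candidate of each of the 64 genes, in the authors' units on a log axis, by complex and in falling order. Filled points are IDR peaks, open points weaker candidates and crosses genes with no pooled candidate, drawn at the bottom. Ssl1 stands highest at 1662, and the dashed line is the IDR limit of 99.3.

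Among the polymerase subunit genes the peak was strongest at Polr2B, which encodes the second-largest subunit. Its signal was 311 in replicate 1 and 137 in replicate 2 (pooled 449.5, rank 268 of 4117), for a peak on 3R from 14125502 to 14125843 with the summit 63 bp upstream. Polr2A, which encodes the largest subunit and forms the catalytic centre together with the product of Polr2B, lay close to the limit. It had 80.3 in replicate 1 and 37.2 in replicate 2 (pooled 112, rank 3534; X, 11570304 to 11570693). The value of replicate 2 came from another summit in the window, since no candidate of that replicate lay within 100 bp of the IDR summit. The genes for both large subunits thus had a peak, at either end of the range for this complex.

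Of the subunits that RNA polymerase II shares with polymerases I and III, 2 of 5 had a peak. Polr2H had 294 and 135 in replicates 1 and 2 (pooled 426; 3L, 21728659 to 21728946). Polr2F had 239 and 89.2 (pooled 327; 3R, 5371645 to 5371826). The others were low: Polr2E had a pooled candidate of 28.2, Polr2L a candidate of 13 in replicate 2 alone, and Polr2K none.

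The remaining polymerase peaks lay at Polr2J, the subunit that pairs with Polr2C during assembly, and at Polr2I, a small subunit at the edge of the enzyme. Polr2J had 226 and 78.6 (pooled 303; 2L, 17410385 to 17410618) and Polr2I 78.6 and 39.7 (pooled 122; 3R, 14308685 to 14309074). Of the polymerase genes outside the IDR list Polr2C was highest, at 50.6 and 14.4 (pooled 59.2), with no candidate of replicate 2 within 100 bp of the pooled summit. The stalk subunit genes Polr2G and Polr2D had pooled signals of 49.6 and 37.5, and Polr2D had no candidate in replicate 2. Polr2M had no candidate in any list.

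Both subunit genes of TFIIA, which steadies the TATA-binding protein on DNA, carried peaks of nearly equal strength. TfIIA-L had 179.6 in replicate 1 and 67.4 in replicate 2 (pooled 247; 3R, 27253177 to 27253321). TfIIA-S had 153 and 83.8 (pooled 242; 3R, 23891046 to 23891176). The paralog TfIIA-S-2 had no candidate in any list.

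TfIIB, whose product bridges TFIID and the polymerase, had 135 and 32.2 (pooled 164; 2L, 10430810 to 10431199). TFIIE was divided: TfIIEbeta had 68.7 and 30.1 (pooled 104, rank 3891; 3L, 4286793 to 4287182), while TfIIEalpha had 44.6 and 25.7 (pooled 63.6) and stayed outside the list. TFIIF showed little, with a pooled signal of 37.5 at TfIIFalpha and a candidate of 11.9 in replicate 2 alone at TfIIFbeta. TfIIS had 44.5 and 19.9 (pooled 59.8). Its nearest IDR summit lay 812 bp upstream, outside the window, at a signal of 147. The count for these factors changed without replicate 1: among the 4117 strongest candidates of replicate 2 alone, 2 of the 9 genes had a promoter peak, TfIIA-L and TfIIA-S, in place of 4.

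TFIID had the lowest share of IDR peaks of these complexes and the highest share of genes with some pooled candidate among those of more than 1 gene, 14 of 16 (87.5%). Taf5, a scaffold of the complex, led with 251 in replicate 1 and 107 in replicate 2 (pooled 359.5; 2R, 10879670 to 10879952). Taf2, whose product contacts DNA around the start site, had 172 and 90.6 (pooled 263; 3L, 9888735 to 9889124). Taf4, a core subunit, was close to it with 164 and 88.2 (pooled 253; 3L, 16113495 to 16113884).

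Taf7 was unevenly represented, with 112 in replicate 1 (rank 1959) and 22.6 in replicate 2 (rank 8274; pooled 133; 3R, 7907333 to 7907722). Below the limit came Taf11 (74.6 and 27.2, pooled 97.1) and Taf6 (57.1 and 28.5, pooled 83.9). Tbp, the gene for the TATA-binding protein, had 41.6 and 31.0 (pooled 64.3). Taf1, which encodes the largest subunit, had 36.6 and 17.6 (pooled 43.0).

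The other TFIID genes with a pooled candidate, Taf13, Taf9, Taf3, Taf8, Taf10b and Taf12, had pooled signals between 33.7 and 67.7. Taf10 and Taf10b are neighbours, and the candidates listed for both in the replicates (30.9 and 15.4) are the same peaks. Taf12L, a TAF12 homologue, had no candidate in any list. Of the TBP-related and remaining TAF genes without a Taf symbol (Trf, Trf2, nht, can, sa and mia), 0 of 6 had an IDR promoter peak and 1 had a pooled candidate.

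Ssl1 had by far the highest signal of the 64 genes: 1166 in replicate 1 (rank 8), 501 in replicate 2 (rank 9) and 1662 in the pooled list (rank 8; 3L, 22878703 to 22879101). It encodes a core subunit of TFIIH, the factor that opens promoter DNA and also takes part in nucleotide excision repair. The summit lay 192 bp upstream of the Ssl1 TSS and 87 bp downstream of that of Chro, a chromatin protein gene on the other strand, so the peak counts for both genes. The remaining TFIIH subunit genes, which have no TfII symbol, had peaks at 5 of 9 promoters. They were mrn (pooled 227), Xpd (173), Cdk7 (119.8), Tfb4 (119) and Tfb1 (116), and hay, CycH, Mat1 and Tfb5 had none.

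Mediator peaks were spread over its modules. Of the genes named MED27, MED28 and MED30, and ix, the gene for MED29, which sit near the junction of head and tail, 2 of 4 had a peak. These were the strongest of the complex. MED30 had 333 and 160.3 in replicates 1 and 2 (pooled 493; 3L, 654139 to 654408), and MED27 had 305 and 129 (pooled 430.3; 3R, 5654845 to 5655154).

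The head module, which contacts the polymerase, had peaks at 3 of 7 genes. MED17, its central subunit, had 243 and 101 (pooled 342; 3R, 18188842 to 18189106), and MED6 had 116 and 56.1 (pooled 165; 3R, 9767586 to 9767975). MED8 was just inside the limit at 82.6 and 19.2 (pooled 102, rank 3973; 2R, 20326908 to 20327297), with no candidate of replicate 2 within 100 bp of the IDR summit. Of the others in this module, MED22 had a pooled candidate of 38.7, MED11 and MED18 had candidates in replicate 2 alone, and MED20 had none.

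The middle module had peaks at 3 of 9 genes. MED7 had 222 and 98.2 (pooled 322; 3R, 10761006 to 10761160), MED4 had 169 and 84.3 (pooled 252; 3L, 7250485 to 7250874), and MED31 had 114 and 67.3 (pooled 177; 3R, 4641647 to 4642036). MED21 was the gene closest below the limit, at 77.1 in replicate 1 and 12.8 in replicate 2 (pooled 98.6). The value of replicate 2 came from another summit in the window, and the candidate of that replicate within 100 bp of the pooled summit had 11.1 (rank 26098). MED1 and MED9 had no candidate in any list, and MED19, MED26 and MED10 had pooled signals of 82.4, 58.1 and 50.7.

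The tail module, which many activators contact, had peaks at 2 of 5 genes, and both were weaker than most of the head and middle peaks. MED25 had 99.0 and 65.9 (pooled 163; 3R, 20008664 to 20009053), and MED16 had 80.4 and 36.0 (pooled 114; 2R, 22182850 to 22183239). MED24, MED23 and MED15 reached pooled signals of 84.2, 66.2 and 37.6, and MED14, the scaffold that connects the modules, 83.0. Of the kinase module (kto, skd, Cdk8 and CycC), which has no MED symbols, skd had a peak (pooled 249, 421 bp upstream) and the other 3 did not.

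The 25 peaks had a median signal of 252 (median rank 966), against 182 (median rank 1754) over the 2738 other protein-coding genes with a promoter IDR peak. Of the 25, 18 fell in the upper 2058 IDR peaks, against 1584 of the 2763 protein-coding genes with a promoter IDR peak. Among the first 1000 were 13 of the 25, with no such count made for other genes. Medians by complex were 315 for the polymerase, 203 for the TFII factors, 258 for TFIID and 214 for Mediator, with ranges that overlap. The IDR limit falls inside a continuous series of values: MED8 (102) and TfIIEbeta (104) were the members closest above it, and MED21 (98.6) and Taf11 (97.1) closest below.

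Weaker candidates were common among the rest. A pooled promoter candidate was present at 52 of the 64 genes (81.2%), against 50.5% of protein-coding genes, and a candidate in each of the 2 replicates at 46 (71.9%), against 40.6%. Of the 39 genes without an IDR promoter peak, 27 had a pooled candidate, and 0 had an IDR summit inside the gene body. Of the other 13881 protein-coding genes, 11143 had no IDR promoter peak. A pooled candidate was present at 6996 of the 13881, including all 2738 with an IDR promoter peak. The count in gene bodies was not made for other genes, so it cannot be called a trait of these. The candidate lists are meant to include background. The 7 genes with no candidate in any list were Polr2K, Polr2M, TfIIA-S-2, Taf12L, MED1, MED9 and MED20.

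Most of the peaks lay between gene pairs. Another gene had a TSS within 500 bp of the summit at 21 of the 25 genes (84.0%), against 64.4% of the other protein-coding genes with a promoter IDR peak. In all 21 cases a gene on the opposite strand was among them (84.0% of 25, against 61.4%), and at 16 the summit lay between start sites that point away from each other (64%, against 53.1%). At 11 of the 25 (44.0%, against 32.9%) the nearest TSS belonged to the other gene. These were Polr2A, Polr2H, TfIIA-L, TfIIB, Taf2, Taf5, Ssl1, MED4, MED8, MED30 and MED31.

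Partner genes had varied functions. Polr2I shared its peak with su(Hw), an insulator protein gene, and TfIIA-L with pll, a kinase gene of the Toll pathway. MED30 shared its peak with Rev1, which encodes a translesion DNA polymerase, and MED7 with Cap-H2, a condensin subunit gene. Taf5 shared its peak with Pex6, a peroxisome gene, Taf2 with CalpB, a calpain protease gene, and Taf7 with EMC1. MED31 and slx1 are annotated with the same distance to the summit, so that peak counts for both. The genes with no other TSS at the summit were Polr2F, TfIIA-S, TfIIEbeta and Taf4.

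**Figure D4:**
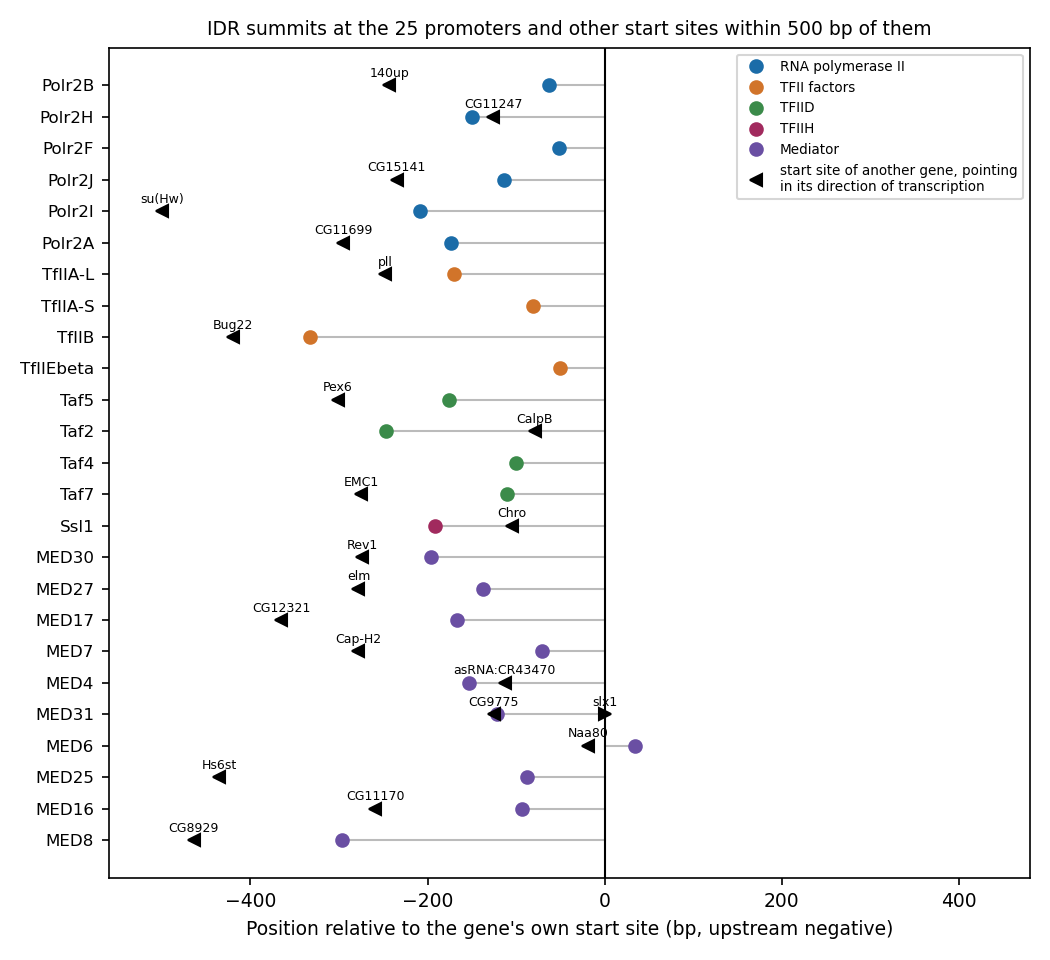
Position of the IDR summit (coloured points, by complex) relative to the TSS of each of the 25 genes, in bp with upstream negative, and of every other TSS within 500 bp of the summit (black arrowheads, pointing the way that gene is transcribed). Summits lie between 333 bp upstream and 34 bp downstream, and the arrowheads point left in each row that has them, with slx1 as a further, rightward one.

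This arrangement bears on the count. Of the 64 genes, 40 (62.5%) have the TSS of another gene within 500 bp of their own, against 34.4% of protein-coding genes. Among those 40, 21 had a promoter IDR peak (52.5%, interval 37.5 to 67.1%), against 37.4% of protein-coding genes with such a neighbour. Among the other 24, 4 had one (16.7%, interval 6.68 to 35.9%), against 10.6% of protein-coding genes without. The 10.6% lies inside the interval of the 24 genes, and the 37.4% lies just below that of the 40. When each summit was counted for the nearest TSS alone, 14 of the 64 genes kept a peak (21.9%), against 13.6% of protein-coding genes. No interval was computed for this share, so it does not establish a difference from the 13.6%. By complex these were 4 polymerase, 2 TFII, 2 TFIID and 6 Mediator genes, and Ssl1 dropped out.

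Summits lay upstream of the TSS at 24 of the 25 genes (96.0%), against 91.1% of the others, with MED6 as the exception at 34 bp downstream. The median was -137.0 bp, with quartiles of -176.0 and -88.0 bp, against -136.0 bp with quartiles of -223.75 and -72.0 bp. The median of the same 25 genes was -138.0 bp in replicate 1 and -158.0 bp in replicate 2. Medians by complex lay between -125.5 bp for the TFII factors and -143.0 bp for TFIID, with -192 bp for Ssl1. TfIIB had the most distant summit inside the window, at 333 bp upstream. The closest outside were at MED15, 567 bp upstream with a signal of 421, and at TfIIS.

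By chromosome arm, peaks were present at 12 of 21 genes on 3R (57.1%, interval 36.5 to 75.5%), against 22.9% of the protein-coding genes there. On 3L they were present at 7 of 16 (43.8%, interval 23.1 to 66.8%), against 20.9%. On 2R the count was 3 of 8 (interval 13.7 to 69.4%), against 17.7%, and on 2L it was 2 of 11 (interval 5.14 to 47.7%), against 19.5%. On the X it was 1 of 6 (interval 3.01 to 56.4%), against 17.2%, and on chromosome 4 it was 0 of 2 (interval up to 65.8%), against 8.75%. The share of the arm's protein-coding genes lay below the interval on 3R and 3L and inside it on the other arms, which hold few of these genes. The genes on chromosome 4, MED26 and Taf3, had pooled candidates of 58.1 and 47.4. On the X, Polr2A was followed by Taf9 (59.3), Taf8 (46.0) and MED22 (38.7), while MED18 and TfIIA-S-2 had no pooled candidate.

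Across the 46 genes with a promoter candidate in both replicates, the replicates' signals rose together, with Spearman's rho = 0.858, given as a description because genes are not independent replicates and share the same 2 samples. Over 5621 other protein-coding genes rho was 0.835. For the 25 genes with an IDR peak rho was 0.922, against 0.807 over 2726 other protein-coding genes with one. For the 21 of the 46 without such a peak rho was 0.0890, a set confined to low signals by the limit. The percentile rank was higher in replicate 1 for 23 of the 46, against 38.7% of other protein-coding genes, with ranks in replicate 2 taken over the list of 30000 entries that may be cut short. Of the 25 IDR summits, 23 had a candidate within 100 bp in both replicates, the exceptions being Polr2A and MED8. The same held at 2638 of the 2738 other protein-coding genes with a promoter IDR peak.

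**Figure D5:**
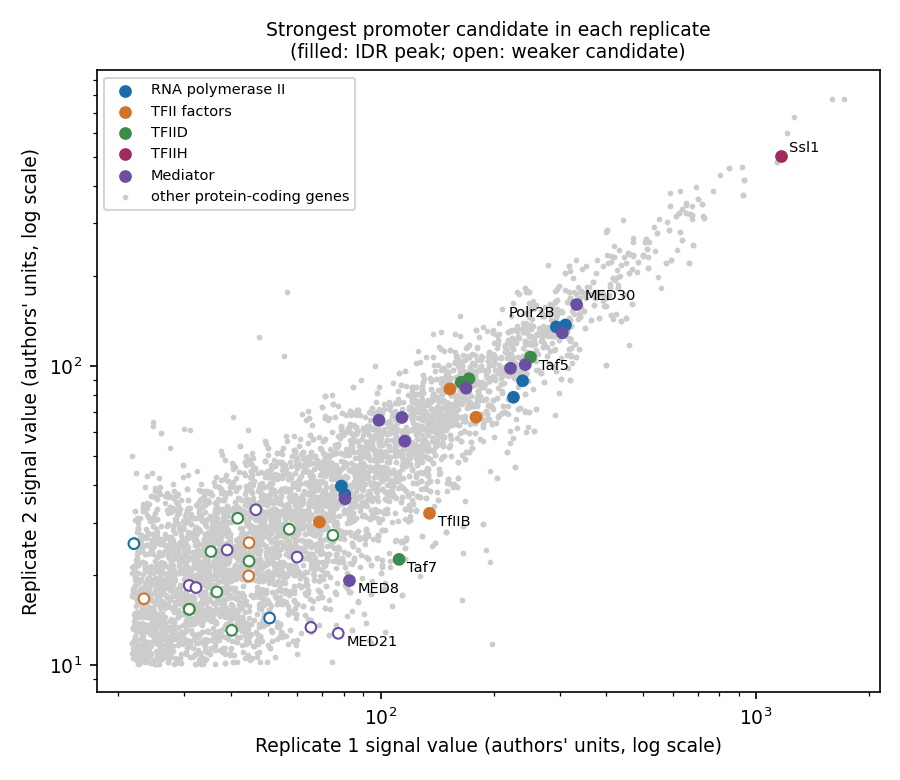
Signal of the strongest promoter candidate in replicate 1 (horizontal) and replicate 2 (vertical), in the authors' units on log axes, for the 46 genes with a candidate in both and, in grey, for 5621 other protein-coding genes. Filled points are IDR peaks and open points weaker candidates. Ssl1 lies far above the other 45, and MED21, Taf7, MED19, MED8 and TfIIB, whose replicate 1 signals are highest relative to replicate 2, lie to the right of the diagonal band.

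Genes of neighbouring pathways varied in their share of promoter peaks, against 19.8% of protein-coding genes. Promoter IDR peaks were present at 9 of 18 genes for pausing and elongation factors (interval 29.0 to 71.0%), led by Nelf-E (pooled 395) and TH1 (315), which encode subunits of the pausing factor NELF. The SAGA coactivator, which shares TAFs with TFIID, had 8 of 14 (57.1%, interval 32.6 to 78.6%), led by the histone acetyltransferase gene Gcn5 (322). The subunits of RNA polymerases I and III had 5 of 17 (29.4%, interval 13.3 to 53.1%), led by Polr3E (339), and the 19.8% lies inside that interval. The TFIIH genes other than Ssl1 had 5 of 9 (55.6%, interval 26.7 to 81.1%), the Mediator kinase module 1 of 4 (interval 4.56 to 69.9%), and the TBP-related and remaining TAF genes 0 of 6 (interval up to 39.0%). The last 2 intervals also hold the 19.8%, and each of the 6 intervals overlaps the 28.1 to 51.3% of the 64 genes.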

How the data were processed

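ChIP-seq peak lists of 2 replicates were used, on dm6. Per the names of the deposited files, the authors listed candidates (peaks and background) for each replicate and for the pooled data, and an IDR list. The control library was not analysed here. Which aligner and peak caller were run is not given in the sources used here. As deposited, the signal value (column 7) is the authors' enrichment per peak, and the -log10 q value, also as deposited (column 9), was not used for ranking. The lists on dm3 were not used. Each of the 6 arms of the Release 6 reference was longer than the highest peak end on it.

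Summits were placed relative to every annotated TSS with Python 3.11.15, and the strongest summit within 500 bp was kept per gene. The assignment was tested on simulated data. Shares carry 95% Wilson intervals. Sequence stretches were trimmed at annotated exons. Every gene with an IDR promoter peak is named, as are the strongest others of each complex and those without any candidate. The genes and lists were chosen with earlier results of these data known, so no list was tested. Of the list names, 2 had no match in the annotation. Alternatives were other windows, a stricter list, each replicate alone, the nearest TSS and peak overlap.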

Additional observations from a re-analysis of the deposited data

How the results depend on the processing

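Of 25 genes with an IDR promoter peak, 23 kept it with a 250 bp window (35.9% of the 64, against 15.8% of protein-coding genes). With 1000 bp, 27 had a peak (42.2%, against 22.6%), MED15 and TfIIS added. The stronger IDR peaks gave 18 (28.1%, against 11.4%) and peak overlap 26 (40.6%, against 21.0%). The strongest candidates of 1 replicate alone gave 20 without replicate 1 (31.2%, against 18.7% of protein-coding genes) and 27 without replicate 2 (42.2%, against 20.1%). By complex, leaving out a replicate gave 6 for the polymerase in each case, 2 to 4 for the TFII factors, 3 to 5 for TFIID, 1 for TFIIH and 8 to 11 for Mediator. Counting the nearest TSS alone gave 14 in all, made up of 4, 2, 2, 0 and 6 in the same order. TfIIA-L and TfIIB were among the genes lost there, and the cause is the construction, since a shared peak then counts once.

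The background share was 16.3% over annotated genes, 19.8% over protein-coding genes, 12.7% with 250 bp and 19.6% with 1000 bp. The median distance was -121.0 bp with 250 bp and -150.0 bp with 1000 bp. Among the strongest 4117 candidates of each list, 15 of 20 genes ranked higher in replicate 1, against 59.0% of 2227 other protein-coding genes. With summits matched within 100 bp, 18 of 39 did, against 40.4% of 4601 other protein-coding genes. ATTTAAAA occurred in 1 window at 25 bp and 6 at 100 bp on either side, and GCAGCCCT, searched after the data were seen, in 1 window at 25 bp. A candidate in both replicates was present at 39 genes with 250 bp and 49 with 1000 bp, with no share over other genes computed at these windows. With 2 samples and unknown depth, weak peaks near the limit cannot be separated from genes just below it.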

Other observations

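A further word was noticed by reading the summit windows of these genes, the same windows in which it is counted here. That choice favours a high share among them, so the counts are a description and give no test. GCAGCCCT occurred within 50 bp of the summit at 4 of the 25 genes (16.0%), Polr2F, TfIIA-S, TfIIEbeta and MED25, against 30 of 2139 other promoter IDR peaks (1.40%) and 5 of the same 2139 in windows 300 bp away (0.234%). The word lay on the strand of the gene in all 4. The first 3 have no other TSS at the summit, and MED25 has one. Its centre lay 63 bp upstream of the nearest TSS at Polr2F, 47 bp at MED25, 46 bp at TfIIA-S and 11 bp at TfIIEbeta, and 11 to 41 bp from the summit. Within 25 bp of the summit 1 of the 25 windows held it.

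The word is shown in capitals in the stretches that lie outside annotated exons, on dm6 and along the strand of the gene. They are TfIIA-S (chr3R:23891091-23891191, minus), TfIIEbeta (chr3L:4286938-4287037, plus) and MED25 (chr3R:20008809-20008909, plus).
TfIIA-S: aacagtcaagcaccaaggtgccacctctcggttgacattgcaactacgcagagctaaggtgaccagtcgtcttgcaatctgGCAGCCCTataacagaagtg
TfIIEbeta: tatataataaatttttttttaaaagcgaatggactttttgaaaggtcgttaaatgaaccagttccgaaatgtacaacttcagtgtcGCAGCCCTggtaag
MED25: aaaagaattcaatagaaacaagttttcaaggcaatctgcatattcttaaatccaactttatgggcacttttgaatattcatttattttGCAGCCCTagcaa

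From 250 bp upstream to 50 bp downstream of a TSS, 6 of the 64 genes held the word on either strand (9.38%), against 322 of 13945 protein-coding genes (2.31%). The further ones were MED31, which has an IDR peak, and MED20, which has no candidate in any list. Of the 322 genes, which include the 6, 158 had an IDR promoter peak (49.1%), against 19.8% of all protein-coding genes. Of the 6, 5 had one. These include the 4 genes with the word in an IDR summit window, where it was noticed. Neither the 9.38% nor the 5 of 6 is independent of that choice. Whether the word has any part in binding was not tested.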
